A study of Mus musculus with 2 samples.

Results

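The genes described here are Mir126a, Mir143 and Mir145a, 3 of the 1973 miRNA genes counted in hindbrain of mouse embryos. They were chosen by their symbols in GENCODE release M21, matched to the gene IDs of the tables. That rule did not use their levels, though the choice was made with earlier results of these data known. MicroRNA sequencing was carried out on hindbrain of the B6NCrl strain at embryonic day 12.5, with males and females pooled and no treatment named. The series holds 1 group of 2 libraries, biological replicate 1 from a pool of 120 embryos and biological replicate 2 from a pool of 88. Both libraries carry the same donor label, and only the replicate numbers and the sizes of the pools set them apart. With no second condition, the data give levels, the ratios between the genes, and how far the replicates differed.

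MicroRNAs are short RNAs cut from hairpin precursors, and they guide the repression of messenger RNAs through the seed near their 5′ end. miR-126 is the classical miRNA of endothelial cells, which line blood vessels. It is made from within the gene of the secreted endothelial protein Egfl7, and it is known to strengthen the response to vascular endothelial growth factor by repressing Spred1 and Pik3r2, which dampen that signal. miR-143 and miR-145 are neighbours made from a common precursor and are known from mural cells, the smooth muscle cells and pericytes that wrap vessels, where they favour the contractile state and repress factors such as Klf4 and Elk1. In the embryonic hindbrain, vessels grow into the neural tissue from a plexus on its surface. The cell types are background, since counts from whole tissue do not place a miRNA in a cell.

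In GENCODE M21 on GRCm38, the assembly also known as mm10, Mir126a (ENSMUSG00000065540.1) lies on the plus strand at chr2:26591357-26591429. It lies inside an intron of 8 of the 9 Egfl7 transcripts that span it and inside an exon of the other one.

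The sequence shown first is the RefSeq hairpin of Mir126a (GRCm38.p6), because Mir126a holds the larger part of the reads of the 3 genes. Capitals mark miR-126a-3p, which covers bases 46 to 67 of the 73.
Mir126a: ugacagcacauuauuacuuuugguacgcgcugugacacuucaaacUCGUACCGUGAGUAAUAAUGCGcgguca
The mature miRNAs that RefSeq lists for the locus follow with the seed, bases 2 to 8, in capitals. Those of Mir126b are shown because that hairpin is read from the other strand of the same DNA, at chr2:26591363-26591420, and its 58 bases are the reverse complement of bases 7 to 64 of Mir126a.
miR-126a-3p: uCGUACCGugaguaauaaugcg
miR-126b-5p: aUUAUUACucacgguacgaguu
miR-126b-3p: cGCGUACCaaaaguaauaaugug
The loci of miR-126a-3p and miR-126b-5p overlap by 19 bases. Each of these 3 seeds occurred once among the 1738 mature miRNAs of the RefSeq table, so the seed of miR-126a-3p has no other carrier there. No sequence of miR-126a-5p, the other arm of the hairpin, or of Mir143 and Mir145a is printed.

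The unit is CPM, the counts of a gene per 1000000 counts that fell in miRNA genes in the gene's own direction. Replicate 1 had 2764276 assigned counts and replicate 2 had 3946444. Taking 3 counts as the upper limit, a gene with no count can have up to 1.09 CPM in replicate 1 and up to 0.760 in replicate 2. Intervals are exact Clopper-Pearson 95% intervals, and like these limits they cover counting error only. A gene is called detected if neither library had fewer than 10 counts of it, which held for 371 of the 1973 genes and for all 3 vascular genes.

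Mir126a was among the miRNA genes with the most assigned counts in the hindbrain. It had 71836 counts in replicate 1, or 25987 CPM (interval 25800 to 26176), and 92513 counts in replicate 2, or 23442 CPM (23293 to 23592). Its mean was 24715 ± 1800 CPM (SD, n = 2), which placed it 9th of all genes, at rank 8 in replicate 1 and rank 9 in replicate 2. In all, 2.16% of the detected genes had a higher mean. In the order of levels its neighbours above were Mir10a (26113 ± 330 CPM) and Mir30e (25170 ± 447 CPM), and its range over the libraries overlapped theirs. It was above the next genes below, Mir26b (21662 ± 449 CPM) and Mirlet7g (21135 ± 1450 CPM), in both libraries without overlap.

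Mir143, the more abundant member of the mural pair, was also a high gene. It had 22732 counts in replicate 1, or 8223 CPM (interval 8117 to 8331), and 42081 counts in replicate 2, or 10663 CPM (10562 to 10765). The mean of 9443 ± 1725 CPM put it at rank 27, with rank 32 in replicate 1 and rank 22 in replicate 2. Mir342 and Mir149 next above it, and Mir130b and Mir92b next below, had ranges that overlapped its own. Its place among these neighbours was therefore not resolved by the libraries.

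Mir143 (ENSMUSG00000065445.2) and Mir145a (ENSMUSG00000065592.1) share a locus. In M21 Mir143 lies at chr18:61649196-61649258 and Mir145a at chr18:61647825-61647894, both on the minus strand, with 1301 bases between them. There the noncoding gene Carmn, on the same strand, ends 366 bases short of Mir143, whereas its RefSeq gene on the same assembly runs over both hairpins. The tables carry older versions of the Mir143 and Mir145a entries than M21 does, so the intervals counted may differ from these.

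Mir145a was low although it neighbours Mir143. It had 344 counts in replicate 1, or 124 CPM (interval 112 to 138), and 676 counts in replicate 2, or 171 CPM (159 to 185). The mean of 148 ± 33.1 CPM gave rank 195, and 52.3% of the detected genes had a higher mean. All 4 of its rank neighbours, Mir128-2, Mir329, Mir135a-2 and Mir200a, had ranges that overlapped its own. Mir145b, a related hairpin elsewhere on the same chromosome, had no count in either library.

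**Figure D1:**
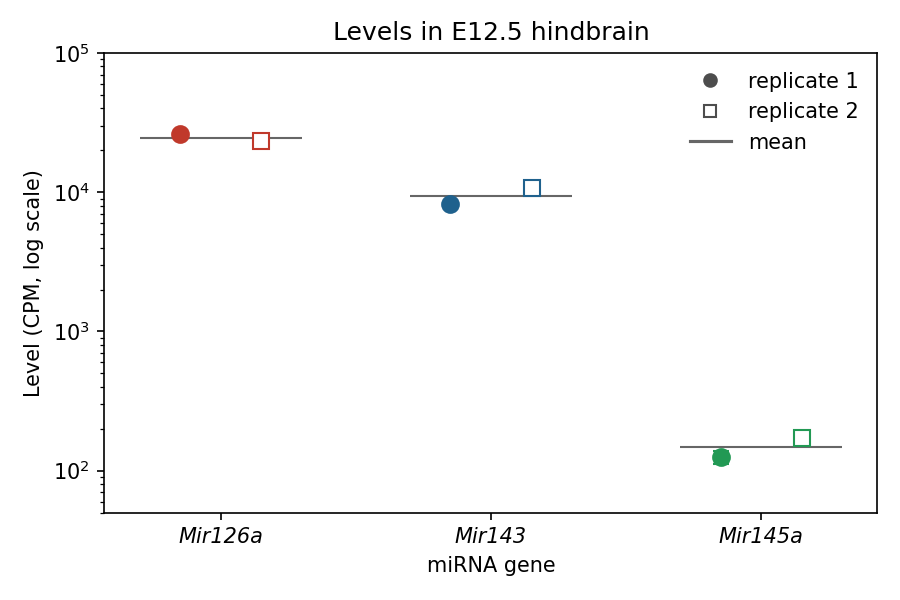
Level of Mir126a, Mir143 and Mir145a in CPM on a log axis, for replicate 1 (filled circles) and replicate 2 (open squares) with exact 95% counting intervals, most of them smaller than the symbols, and the mean as a line. Mir126a lies near 24715 CPM, Mir143 near 9443 CPM and Mir145a near 148 CPM, and the levels of the genes do not overlap.

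**Figure D2:**
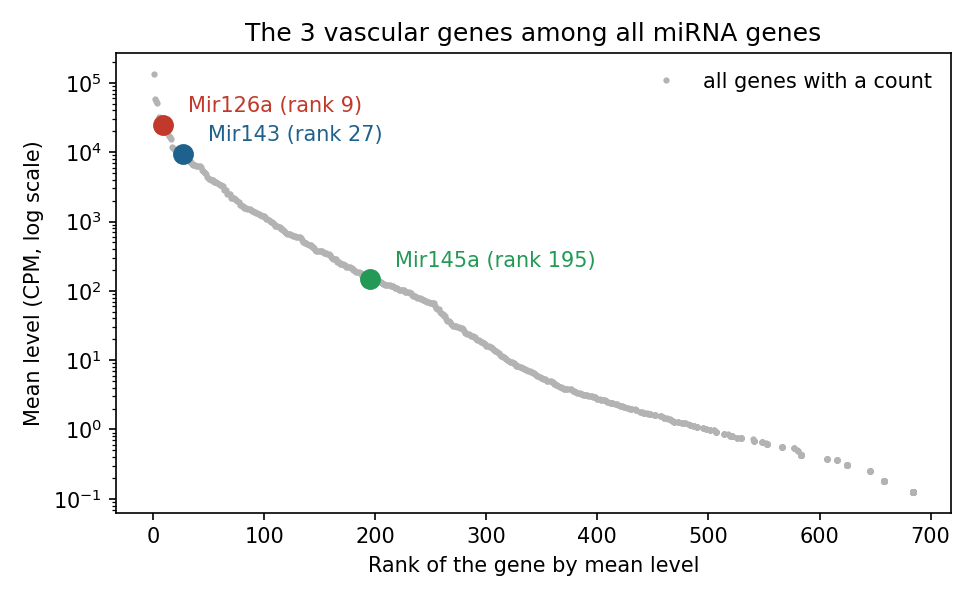
Mean level in CPM on a log axis against the rank of each gene, for all genes with a count in either library. Mir126a (rank 9) and Mir143 (rank 27) lie in the steep top of the curve and Mir145a (rank 195) far down its slope.

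The order Mir126a, then Mir143, then Mir145a held in both libraries with no overlap of the ranges. A read of this size covers a whole mature miRNA, so CPM were compared between the genes without division by length. Within the same library Mir143 had 66.1 times the counts of Mir145a in replicate 1 (interval 59.4 to 73.7) and 62.2 times in replicate 2 (57.7 to 67.3). These intervals overlap, so the ratio inside the mural pair did not differ detectably between the replicates. Divided by the hairpin lengths of 63 and 70 bases, the ratios were 73.4 and 69.2. Mir126a had 3.16 times the counts of Mir143 in replicate 1 (3.11 to 3.21) and 2.20 times in replicate 2 (2.17 to 2.22). These intervals do not overlap, so this ratio differed by more than counting error. Per base of hairpin it was 2.73 in replicate 1 and 1.90 in replicate 2.

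Counting rules bear on these ratios and on the ranks. The arms of a hairpin are counted together, and a read that matched several genomic positions was assigned to no gene. None of the 3 hairpins has an identical run of 20 bases in another M21 miRNA hairpin, against 923 of the 1973 genes that have one. The longest such run was 11 bases for Mir126a, 11 for Mir143 and 17 for Mir145a, the last with Mir145b. Adapters join some small RNAs more readily than others, which both replicates share, and its part in the ratio of Mir143 to Mir145a was not tested. The tissue was taken whole, so a smaller number of vessel cells and less of the miRNA per cell cannot be told apart.

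Reads from the strand opposite to the hairpins were nearly absent. On the opposite strand of Mir126a, where Mir126b lies, replicate 1 had 3 counts and replicate 2 had 10, or 0.00418% and 0.0108% of the counts on the Mir126a strand. Mir126b has no row of its own matched by ID in the tables. Mir143 had no opposite count, and Mir145a had 0 in replicate 1 and 1 in replicate 2. Over all genes the opposite strand held 2.38% of the counts in replicate 1 and 2.35% in replicate 2, and 19 of the 371 detected genes, Mir126a among them, had opposite reads in both libraries.

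Together the 3 genes held 3.43% of the assigned counts in replicate 1 and 3.43% in replicate 2. The make-up of this sum differed between the libraries. Mir126a gave 75.7% of it in replicate 1 and 68.4% in replicate 2, Mir143 gave 24.0% and 31.1%, and Mir145a gave 0.362% and 0.50%. In both libraries Mir126a gave more than the mural pair together.

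Between the libraries, Mir126a was lower and both mural genes were higher in replicate 2, and none of the 3 reached 2-fold. The log2 ratio of replicate 2 over replicate 1 was -0.15 for Mir126a (counting interval -0.16 to -0.13), a 1.11-fold difference. It was 0.37 for Mir143 (0.35 to 0.40), or 1.30-fold, and 0.46 for Mir145a (0.27 to 0.65), or 1.38-fold. The mural genes thus had counting intervals that overlap each other and lie apart from that of Mir126a.

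A two-sided exact binomial test compared the libraries for each of the 393 genes whose mean was 10 counts or more, with Benjamini-Hochberg adjustment over all of them. Such a test compares these libraries and not conditions. A call needed a ratio of 2-fold or more with an adjusted p below 0.05, which held for 14 of 393 genes (3.56%) and for 0 of the 3 vascular genes. With no minimum fold, 203 genes (51.7%) passed, and all 3 vascular genes did, with adjusted exact p of 7.28e-94 for Mir126a, 3.68e-222 for Mir143 and 3.50e-06 for Mir145a. A pass without a minimum fold was therefore common among the tested genes.

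Against the spread of all genes between the replicates, none of the 3 differences passed. edgeR's common dispersion over the 393 genes put the coefficient of variation of a gene between the replicates, apart from counting error, at 17.4%. With this dispersion in edgeR's negative binomial exact test, adjusted p was 1 for each of the 3 genes (unadjusted p 0.677 for Mir126a, 0.294 for Mir143 and 0.218 for Mir145a), and 2 of 393 genes (0.509%) passed. The dispersion came from the same 2 libraries, so the test reads each gene against the other genes. The median absolute log2 ratio of all 393 genes was 0.24. Mir126a differed by less than that, and 32.8% of tested genes had a smaller absolute ratio. Mir143 and Mir145a differed by more, with 67.7% and 76.8% of tested genes below them. Of the 105 genes at 1000 CPM or more, whose median absolute log2 ratio was 0.17, 87 had a smaller absolute ratio than Mir143 and 49 a smaller one than Mir126a.

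**Figure D3:**
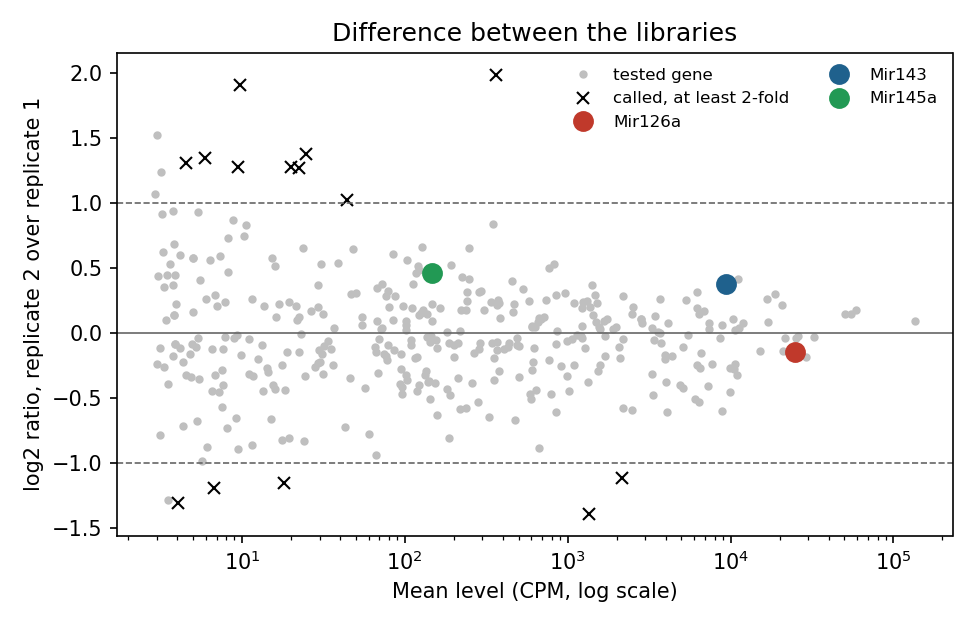
The log2 ratio of replicate 2 over replicate 1 against mean CPM (log axis) for the 393 tested genes, with dashed lines at 2-fold and crosses for the 14 called genes. Mir126a (-0.15), Mir143 (0.37) and Mir145a (0.46) all lie between the dashed lines.

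With 2 libraries the pattern of a gene is a single ratio, so a close match says little. Among the 275 genes whose mean reached 100 counts, 32 had a log2 ratio within 0.05 of that of Mir126a, 10 of that of Mir143 and 7 of that of Mir145a. The log2 ratios closest to that of Mir126a were those of Mir30c-1, Mir3074-1 and Mir151, all within 0.0071 of it. Closest to Mir143 were Mir670, Gm23935 and Mir134, within 0.0089, and closest to Mir145a were Mir495, Mir199a-2 and Mir218-2, within 0.030. Mir134 had 1234 CPM in replicate 1 against 1590 CPM in replicate 2, and Mir199a-2, of mesenchyme, had 102 against 143 CPM. Neither mural gene was among the closest 3 of the other.

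The listed miRNAs of vessel growth, blood and other vessel-related cells were set beside the 3 genes. Over all 393 tested genes the median log2 ratio was -0.04, with 99 genes (25.2%) passing the exact test without a minimum fold as higher in replicate 2 and 104 (26.5%) as lower. Of 24 miRNAs known to act in vessel growth, 23 matched a row, 1 of them (Mir92-1) by an older name, and all 23 were detected. Of these, 9 passed as higher and 8 as lower, none at 2-fold, and their median log2 ratio was 0.08. The most abundant were Mir17 (50795 ± 3598 CPM), of the growth-promoting miR-17-92 cluster, Mir130a (32481 ± 537 CPM), known to repress antiangiogenic homeobox genes, and Mir10a (26113 ± 330 CPM). Most listed genes of this kind are expressed in many cell types, so their levels are no measure of vessels.

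Mesenchymal miRNAs, which perivascular and meningeal cells can also express, were split. Mir199b had 672 CPM in replicate 1 against 970 CPM in replicate 2, a log2 ratio of 0.53, and passed as higher, as did Mir199a-2 (0.49). Mir199a-1 had a log2 ratio of 0.58 and did not pass. Mir214 had 12145 CPM in replicate 1 against 9714 CPM in replicate 2, a log2 ratio of -0.32, and passed as lower. Of the 4 genes, 3 share a run of 20 bases with another hairpin and can lose reads, Mir214 being the exception. The summed level of the list was 12931 CPM in replicate 1 against 10846 CPM in replicate 2, while that of the mural list was 8348 and 10834 CPM. Among 5 listed miRNAs of fibroblasts and vessel walls, Mir21a (5821 CPM in replicate 1 against 6630 CPM in replicate 2) was the highest and passed as higher. Mir29c and Mir29a had means of 102 ± 4.42 and 77.0 ± 6.75 CPM and did not pass. Of the 5 genes, 3 had enough counts for the test. In this list too, 3 genes, Mir29c among them, share a run of 20 bases with another hairpin and can lose reads.

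The matched miRNAs of blood cells, which fill the vessels, had far lower levels than Mir126a. The erythroid list summed to 298 CPM in replicate 1 against 355 CPM in replicate 2, with 3 of 4 listed genes matched. Mir126a alone was 87.1 and 66.0 times as high as these sums. Mir486 of this list shares a long run of bases with another hairpin and can lose reads. The sums can therefore be too low and these ratios too high. The main gene of the erythroid list, Mir451a, of red cell precursors, had 254 CPM in replicate 1 against 316 CPM in replicate 2. It passed as higher, whereas Mir144 and Mir486 (means of 23.1 ± 0.0663 and 18.5 ± 3.98 CPM) did not pass. The leukocyte list summed to 575 CPM in replicate 1 against 465 CPM in replicate 2 on the genes' own strand, with 5 of 6 listed genes matched. Of its 4 tested genes 2 passed as lower, against 104 of all 393 (26.5%), and none as higher, against 99 (25.2%). Those passing were Mir223 (293 and 225 CPM) and Mir146 (53.5 and 32.4 CPM), while Mir155 (209 and 195 CPM) did not pass.

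Some listed miRNAs of striated muscle and epithelium also differed between the libraries. The striated muscle list summed to 177 CPM in replicate 1 against 647 CPM in replicate 2, with 9 of 10 listed genes matched and its defining genes Mir1a-1 and Mir133a-1 at 0 in both libraries, both of which share a run of 20 bases with another hairpin. Of its 6 tested genes 4 were called as higher at 2-fold (Mir206, Mir133b, Mir208b and Mir499), against 9 of all 393 (2.29%). Mir208a (14 counts in replicate 1 and 16 in replicate 2) and Mir1b (9 and 14) did not pass. Their log2 ratios were -0.33 and 0.10. Counts were also low for Mir133b (15 and 53) and Mir499 (11 and 61). Mir206, of skeletal muscle, had 146 CPM in replicate 1 against 579 CPM in replicate 2. The epithelium list summed to 9660 CPM in replicate 1 against 6470 CPM in replicate 2, with 2 of 7 tested genes, Mir200c and Mir429, called as lower at 2-fold, against 5 of all 393 (1.27%). Mir205 of the same list passed as higher without a minimum fold, with a log2 ratio of 0.20. With the negative binomial test, Mir206 (adjusted p 5.42e-05) and Mir200c (0.0266) kept their calls, and the calls of Mir499 (0.0976), Mir429 (0.162), Mir208b (0.316) and Mir133b (0.706) were lost. Their part in the differences of Mir143, Mir145a and Mir126a was not tested. The neuronal list summed to 5664 CPM in replicate 1 against 6072 CPM in replicate 2. Of its 7 tested genes 3 passed as higher and 2 as lower without a minimum fold, against 25.2% and 26.5% of all 393. The neural progenitor list, with 2 of 3 genes matched, summed to 369 CPM in replicate 1 against 400 CPM in replicate 2. Copies in these lists lose reads that match several positions.

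**Figure D4:**
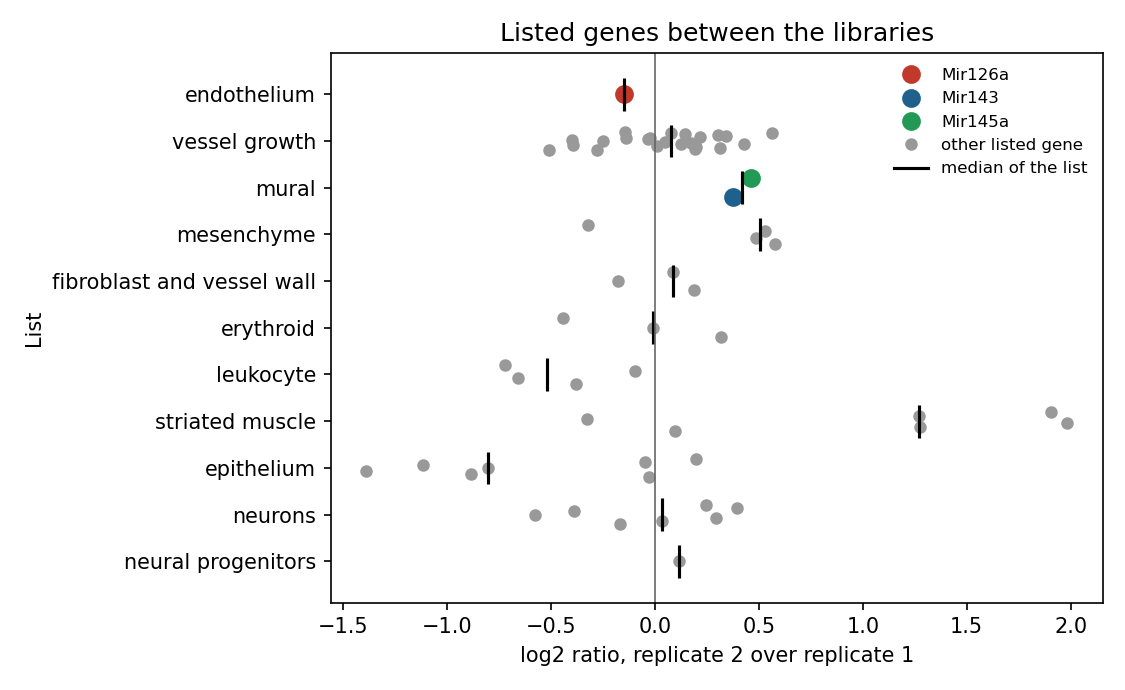
The log2 ratio of replicate 2 over replicate 1 for each tested gene of 11 lists, with the list's median as a bar and the 3 vascular genes in colour. Mir143 (0.37) and Mir145a (0.46) lie right of 0 and Mir126a (-0.15) left of it, while the striated muscle median of 1.27 and the epithelium median of -0.81 lie farther out.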

How the data were processed

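Small RNA, of under 30 bases by the size range in the labels, was sequenced in 2 libraries of 1 group. The deposited tables hold raw read counts per miRNA gene, made by the authors from alignments to mm10 with GENCODE M4, per the text files deposited beside them. Aligner, trimming and counting tool: not given in the sources used here. The columns have no header. The column taken as the gene's own strand was inferred from the layout and the totals. Tally rows without a gene stayed out of all totals: unmapped reads (15.7% and 16.2% of 5947846 and 8656439 reads), reads at several positions (32.7% and 33.4%) and reads outside miRNA genes (3.98% and 3.72%). No molecular identifiers are named, so amplified copies count as reads.

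IDs were matched without version to GENCODE M21 (1894 of 1973), and listed names with no row were looked up among older names in RefSeq. CPM, exact tests and figures used Python 3.11.15, pandas 2.3.3, SciPy 1.17.1 and matplotlib 3.10.9. The ratio between libraries had 0.5 added to each count. Dispersion and TMM came from edgeR 4.0.16 and size factors from DESeq2 1.42.0 in R 4.3.3. The members and lists were chosen with earlier results of these data known. Genes named beyond the members are the 2 next above and below in rank, the 3 closest in log2 ratio, and at most 3 per list by mean CPM. Mir199a-1, Mir145b, Mir92-1, Mir206, Mir133b, Mir208b, Mir499, Mir208a, Mir1b, Mir200c, Mir429, Mir205, Mir1a-1 and Mir133a-1 were named after their values were seen. Mir142 was named after the matching had left it without a row. The exact p-values set the difference between these libraries against counting error only. The negative binomial p-values also take in the spread of all tested genes between these libraries.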

Additional observations from a re-analysis of the deposited data

Results flagged for a closer look

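On the strand opposite to Mir126a, replicate 2 had 10 counts, in a column outside the main values. Replicate 1 had 3 counts on that strand. The upper limit of 3 counts applies to a gene with no count, so it does not judge either value. The strand is that of the annotated hairpin Mir126b, and the counts are 2.53 CPM in replicate 2 and 1.09 CPM in replicate 1. Groups of 2 libraries are too small for a search for outlying samples.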

How the results depend on the processing

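Of 66 values under alternatives, 50 kept their direction and side of the threshold or moved by less than 1 SD. With 2 libraries, leaving out 1 returns the value of the other, which always lies within 1 SD of the mean. The values from leaving out a library were therefore bound to fall among the 50. The log2 ratios of Mir126a, Mir143 and Mir145a kept their sign in all 24 values. The alternatives were TMM, DESeq2 size factors, totals without Mir99a, both strands, pseudocounts of 0 and 1, no minimum fold and negative binomial error. No minimum fold and negative binomial error alter only the call, and the pseudocounts hardly moved the ratios. Under these alternatives the sign could not change, so they lend no weight. The log2 ratios ranged from -0.16 to -0.11 for Mir126a, from 0.37 to 0.41 for Mir143 and from 0.45 to 0.49 for Mir145a. With no minimum fold all 3 passed (-0.15, 0.37 and 0.46). The denominator set the levels. With all reads as the denominator Mir126a had 11382, Mir143 4342 and Mir145a 68.0 per 1000000 and the 3 genes held 1.58%. Without Mir99a Mir126a had 28558 CPM and the share was 3.97%. Without genes that share a run of 20 bases they were 26866 CPM and 3.73%, and with both strands the share was 3.35%. Per base of hairpin, chosen after seeing the data, Mir143 had 71.3 times the level of Mir145a. With 14 genes called in the reported test, 4 of 275 were called at a mean of at least 100 counts, 2 with negative binomial error and 203 with no minimum fold. With fewer genes tested the first count falls by construction. Leaving out each library gave 23442 to 25987 CPM for Mir126a, 8223 to 10663 for Mir143 and 124 to 171 for Mir145a. No paired analysis was possible because the series has 1 group. Depth limits Mir145a most, with 344 counts in the smaller library.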
